A study of Mus musculus with 6 samples.

Results

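The 10 genes described here make, break down and control the polyamines. They were chosen by symbol: Odc1, Amd1, Srm, Sms, Sat1, Smox, Paox, Azin1, Oaz1 and Arg2, all 10 of which were among the 24421 genes of the deposited tables. Polyamines are small, positively charged molecules that bind nucleic acids and are needed for growth and translation. Putrescine is made from ornithine and is then extended to spermidine and spermine. The prostate is among the tissues that make and secrete the most polyamines, and ornithine decarboxylase is a classical androgen-responsive enzyme in rodent prostate.

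RNA sequencing was applied to mouse prostate, with 4 samples from castrated animals, which the labels give as Cx, and 2 from intact ones. All 6 samples carry the same genotype, in which the PB-Cre4 transgene deletes a floxed gene, so no sample without that deletion is compared here. In this model a probasin promoter drives Cre in prostate epithelium, while other cells of the gland keep the floxed gene, and the promoter itself responds to androgen. The labels give neither age nor time since castration, and do not state that each sample is another animal, so the p-values reflect the variation among these 6 samples and part of it may be technical.

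The number of reads counted in genes ranged from 43679297 to 59170793 per sample. The castration label was checked on 5 androgen receptor targets, whose summed level was 34.3 to 39.2 rescaled CPM (deposited CPM divided by a size factor) in castrated and 331.2 to 331.4 in intact samples, with 4 of 5 called lower. Of 5 prostate genes, 2 were called lower and 0 higher, with sums of 506 to 763 in castrated and 1118 to 1201 in intact samples. Seminal vesicle markers were at or near 0 in both groups. Castrated samples 2 and 4 had basal epithelial marker sums of 3443 and 2571, against 594 and 757 in castrated samples 1 and 3 and 3307 and 3713 in the intact ones. In tissue samples like these, fewer cells of a type and less RNA per cell cannot be told apart.

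Of the 10 genes, 9 passed the filter (CPM of 1 or more in 2 or more samples) and 1, Amd1, did not. Arg2 was called lower in castrated prostates and none of the other 8 was called, where a call is an adjusted p under 0.05 in limma with Benjamini-Hochberg adjustment over all 13898 tested genes. In the same comparison 1.97% of all tested genes were called and 1.27% were called lower. At an unadjusted p under 0.05 there were 2 of the 9, Arg2 and Azin1, against 15.9% of tested genes. edgeR called 1 and DESeq2 called 2, against 1.46% and 9.31% of genes. The median log2 difference of the 9 was -0.03, beside 0.00 for all tested genes. The groups did not overlap in Arg2 and Azin1, which is 2 of 9, while they did not overlap in 26.6% of tested genes.

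**Figure D1:**
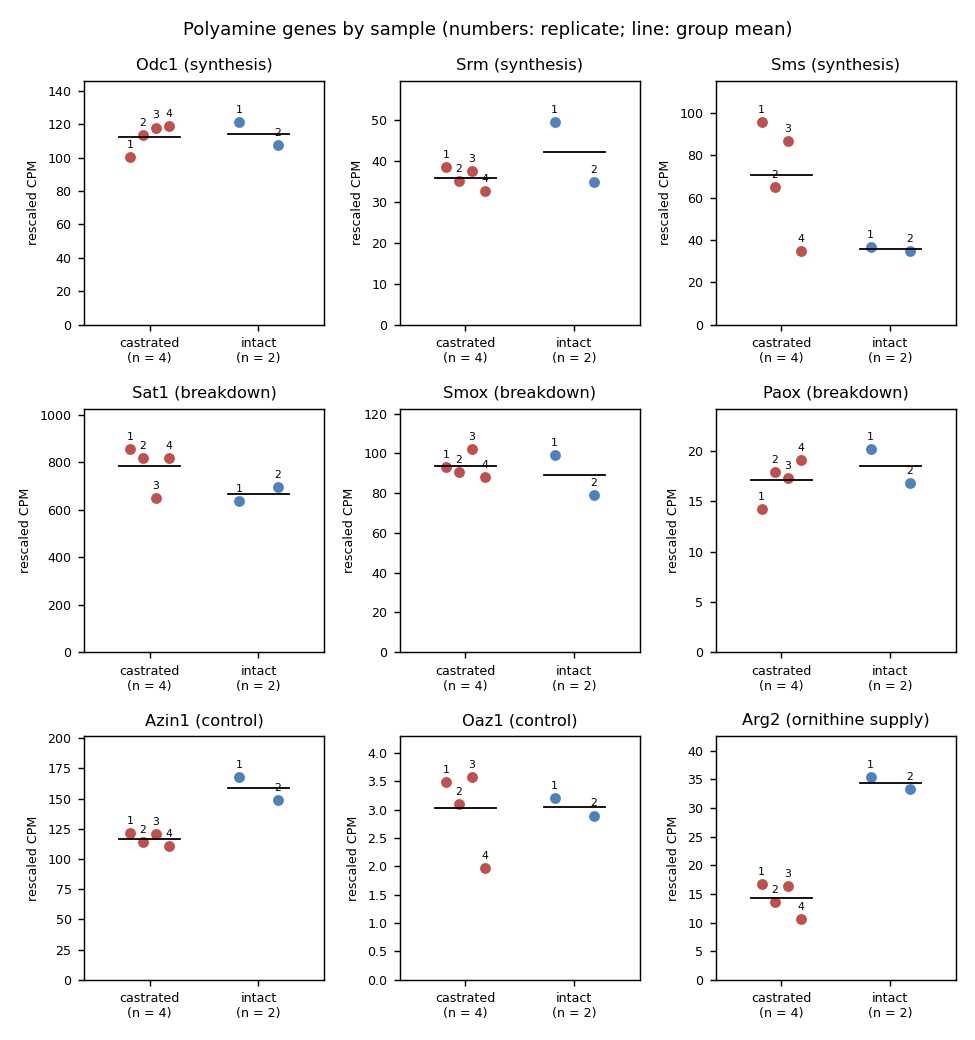
Rescaled CPM (y axis, linear from 0) of the 9 measured polyamine genes in 4 castrated samples (left, red) and 2 intact samples (right, blue). Each point is a sample with its replicate number and each line a group mean. Castrated and intact points are separate for Arg2 and Azin1, and castrated sample 4 lies at the intact level for Sms.

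Arginase 2 (Arg2, ENSMUSG00000021125, chromosome 12, 79130777 to 79156301, plus strand) is the mitochondrial enzyme that splits arginine into urea and ornithine, the starting material of putrescine. Arg2 had 16.7, 13.6, 16.3 and 10.6 rescaled CPM in castrated samples 1 to 4, against 35.4 and 33.2 in intact samples 1 and 2. All 4 castrated values were below both intact values, and castrated sample 4 was the lowest. Its mean was 14.3 ± 2.83 in castrated (SD, n = 4) and 34.3 ± 1.56 in intact samples (SD, n = 2), a 2.39-fold fall (log2 difference of -1.26 with a 95% interval of -1.74 to -0.78, limma adjusted p = 0.0395). These levels rest on 659 to 930 reads per castrated and 1518 and 1905 reads per intact sample. edgeR gave an adjusted p of 0.0372 and DESeq2 of 4.28e-06 on the recovered reads.

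The size of the fall in Arg2 was between -1.34 and -1.13 on the log2 scale with any 1 sample left out, but the call was kept in 1 of those 6 fits, without castrated sample 4 (adjusted p = 0.0101). Without castrated sample 1, 2 or 3 the adjusted p was 0.0714, 0.112 and 0.0839, and without intact sample 1 or 2 it was 0.265 and 0.235. The call was also lost with no filter on low values (adjusted p = 0.0665). Genes on the opposite strand cover 28.1% of the exon bases of Arg2, among them Vti1b, which encodes a membrane fusion protein. No source used here states whether reads were counted by strand. Vti1b was at 99.9, 88.7, 92.5 and 73.8 rescaled CPM in castrated samples and at 86.3 and 86.8 in intact samples, a log2 difference of 0.03, and its part in the result for Arg2 was not tested.

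Arginase 1 (Arg1), the cytosolic enzyme of the same reaction, is not one of the 10 genes and is given here after its values were seen. It had 312, 773, 377 and 375 rescaled CPM in castrated samples and 624 and 412 in intact samples. Castrated sample 2 was the highest of all and the groups overlapped (log2 difference of -0.24, 95% interval -1.14 to 0.66, limma adjusted p = 0.826). Per kilobase of exon, levels of Arg2 were 10.01 ± 1.98 in castrated and 24.0 ± 1.10 in intact samples.

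Ornithine decarboxylase (Odc1, ENSMUSG00000011179, chromosome 12, 17544794 to 17551505, plus strand) makes putrescine and is the first, rate-limiting enzyme of the pathway. Spermine synthase (Sms, ENSMUSG00000071708, chromosome X, 157443855 to 157492287, minus strand) makes spermine. Of the measured enzymes that make polyamines, these 2 varied least and most between samples, and the bases just before their starts are shown for that reason. RefSeq promoter windows (GRCm38.p6) were found for 7 of the 10 genes. Each line holds the 250 bases before a RefSeq start, with matches to the searched motifs in capitals. The windows are chr12:17544623-17544872 on the plus strand for Odc1 and, for the upstream start of Sms, chrX:157492288-157492537 on the minus strand. The GENCODE start of Odc1 at 17544794 lies inside its window, so the last bases of that line fall within the GENCODE gene.
Odc1: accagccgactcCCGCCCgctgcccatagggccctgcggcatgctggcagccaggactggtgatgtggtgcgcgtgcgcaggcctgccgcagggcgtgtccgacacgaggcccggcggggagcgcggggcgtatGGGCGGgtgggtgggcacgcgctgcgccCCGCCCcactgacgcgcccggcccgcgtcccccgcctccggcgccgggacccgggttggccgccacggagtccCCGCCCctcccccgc
Sms: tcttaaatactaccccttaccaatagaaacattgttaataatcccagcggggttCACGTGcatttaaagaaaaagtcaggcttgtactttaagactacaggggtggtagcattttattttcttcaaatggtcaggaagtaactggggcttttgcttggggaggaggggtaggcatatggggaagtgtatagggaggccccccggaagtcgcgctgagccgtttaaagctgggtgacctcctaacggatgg

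The motifs searched on both strands were the E-box CACGTG, bound by MYC family factors, the GC box GGGCGG, the TATA box TATAAA, and by name the cAMP response element and the androgen response element. The Odc1 window held 4 GC boxes, at 238, 116, 88 and 15 bases before the RefSeq start, the last of them inside the GENCODE gene. The Sms window held 1 E-box at 196 bases before its start. The TATA box, cAMP response element and androgen response element had 0 matches in either printed window. Of 32851 windows of this length in the mouse genome, 32.7% held a GC box and 6.02% an E-box. The TATA box was in 12.4%, the cAMP response element in 1.55% and the androgen response element in 0.00913%. So rare an exact match is absent from almost every window, so the absence of the androgen response element here is not a result. A second annotated start of Sms had 4 GC boxes, at 176, 172, 168 and 128 bases before it, of which the first 3 overlap, and no E-box. A match describes letters and not a bound site.

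Odc1 was at 100.3, 113, 118 and 119 rescaled CPM in castrated samples and at 122 and 107 in intact samples. All 4 castrated values lay below intact sample 1, and castrated samples 2 to 4 above intact sample 2. The mean was 113 ± 8.54 in castrated (SD, n = 4) and 114 ± 10.1 in intact samples (SD, n = 2), a log2 difference of -0.02, 95% interval -0.28 to 0.24 (limma adjusted p = 0.957). That interval reaches no further than a fall of 0.28 on the log2 scale. Of all tested genes, 12.5% had a smaller standard deviation over the 6 samples than Odc1. Transcripts of other genes hold 24.3% of the 50-base stretches of Odc1 transcripts, among them the numbered models Gm7993 and Gm17709, so reads there may not have been assigned.

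Spermidine synthase (Srm, chromosome 4, 148591503 to 148594993) adds an aminopropyl group to putrescine. It had 38.4, 35.1, 37.6 and 32.6 rescaled CPM in castrated samples and 49.6 and 34.9 in intact samples. Intact sample 1 stood above the other 5 samples, and the castrated values spanned the lower intact one. The log2 difference was -0.21 with a 95% interval from -0.59 to 0.17 (limma adjusted p = 0.594).

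Sms was at 95.9, 65.0, 86.8 and 34.6 rescaled CPM in castrated samples, against 36.5 and 34.7 in intact samples. Castrated samples 1 to 3 were above both intact samples, and castrated sample 4 was at the intact level. With all samples the log2 difference was 0.88 with an interval of -0.06 to 1.81, and Sms was not called (limma adjusted p = 0.344, edgeR 0.286, DESeq2 0.0816). Without castrated sample 4 the log2 difference was 1.18 and Sms was called higher (limma adjusted p = 0.0165), in a fit that called 7.63% of tested genes. The other fits with 1 sample left out gave log2 differences from 0.70 to 0.91 and no call. The summed level of 6 luminal epithelial markers followed the same order in the castrated samples, with 10384, 8142, 9059 and 6659. It was 9639 and 9353 in the intact ones, where Sms was low. That order is not particular to Sms, since Srm, Azin1, Arg2 and the summed prostate markers had it as well. The 5 basal markers were lowest in castrated samples 1 and 3, where Sms was highest. Their highest castrated sum, 3443, was in castrated sample 2, where Sms at 65.0 was still above both intact samples. The part of these lists in the levels of Sms was not tested. Transcripts of other genes, among them the pseudogene Sms-ps, hold 17.5% of the 50-base stretches of Sms.

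S-adenosylmethionine decarboxylase (Amd1, chromosome 10, 40287458 to 40302186) supplies the aminopropyl group for both synthases. It was listed with 0 reads in all 4 castrated samples, and with 1 and 0 reads in intact samples 1 and 2, so no comparison was made. A count of 0 allows up to 3 reads, or 0.0507 to 0.0564 CPM in the castrated samples, for counting error only. Amd1 has a near-identical copy, Amd2 (chromosome 10, 35708675 to 35711892), at 0 reads in all 6 samples. Of 3539 distinct 50-base stretches in Amd1 transcripts, 2765 (78.1%) also occur in transcripts of other genes, 2715 of them in Amd2, and 774 do not. Reads from shared stretches cannot be assigned to 1 gene, and their part in these counts was not tested. The level of this enzyme's RNA is thus uncertain in both groups.

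Spermidine/spermine acetyltransferase (Sat1, chromosome X, 155213132 to 155216449) acetylates spermidine and spermine for export or breakdown and is induced by polyamines. Of the 10 genes it had the highest listed level, though the levels of Amd1 and Oaz1 are uncertain. Sat1 had 855, 819, 648 and 818 rescaled CPM in castrated samples, against 636 and 695 in intact samples. Castrated samples 1, 2 and 4 were above both intact samples, and castrated sample 3 lay between them. The mean was 785 ± 92.8 in castrated (SD, n = 4) and 666 ± 41.8 in intact samples (SD, n = 2), a log2 difference of 0.23, 95% interval -0.12 to 0.58 (limma adjusted p = 0.528).

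Spermine oxidase (Smox, chromosome 2, 131491496 to 131525922) turns spermine directly back to spermidine. It was at 93.3, 90.7, 102.1 and 88.0 rescaled CPM in castrated samples and at 99.0 and 79.2 in intact samples. The groups overlapped, with a log2 difference of 0.08 and an interval of -0.21 to 0.36 (limma adjusted p = 0.827). Polyamine oxidase (Paox, chromosome 7, 140115799 to 140137224) acts on the acetylated forms that Sat1 makes. Paox had 14.2, 17.9, 17.3 and 19.1 rescaled CPM in castrated samples and 20.2 and 16.8 in intact samples, with a log2 difference of -0.11 and an interval of -0.49 to 0.27 (limma adjusted p = 0.807). Transcripts of other genes hold 28.5% of the 50-base stretches of Paox.

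Antizyme 1 (Oaz1, chromosome 10, 80826656 to 80829290) binds ornithine decarboxylase and sends it to the proteasome. Its protein is made only when ribosomes shift frame past an early stop codon, and polyamines promote that shift, so RNA levels do not measure antizyme output. The sites of the antizyme genes are shown because this step lies beyond the RNA counts. Each line has 30 bases from the GENCODE transcripts, with the codon TCC and the stop TGA in capitals.
Oaz1: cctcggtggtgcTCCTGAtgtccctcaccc
Oaz2: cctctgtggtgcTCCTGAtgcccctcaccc
Oaz3: tgcctccagtgcTCCTGAgtccctaggagg

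The sites of Oaz1 and Oaz2 were identical at 28 of 30 bases, and those of Oaz1 and Oaz3 at 13 of 30. Both counts include the capitals and the gtgc before them, by which the sites were found and which therefore match by construction. Oaz1 was listed at 3.49, 3.10, 3.58 and 1.96 rescaled CPM in castrated samples and at 3.20 and 2.90 in intact samples, from 122 to 204 reads per sample. Castrated sample 4 was the lowest of the 6 and the groups overlapped (log2 difference of -0.03, 95% interval -0.66 to 0.60, limma adjusted p = 0.974). Of 2911 distinct 50-base stretches of Oaz1, 611 occur in other genes, 586 of them in the pseudogene Oaz1-ps, which was at 0 reads in all 6 samples, and 2300 do not. Reads that match both cannot be assigned, so the level of Oaz1 is uncertain, and the part of shared reads in it was not tested.

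Antizyme 2 (Oaz2), from the wider list, was at 120.2, 99.2, 107 and 96.7 rescaled CPM in castrated samples and at 104 and 103 in intact samples. The groups overlapped, with a log2 difference of 0.03 and an interval of -0.24 to 0.29 (limma adjusted p = 0.945). Oaz2 is given here after its values were seen.

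Antizyme inhibitor 1 (Azin1, ENSMUSG00000037458, chromosome 15, 38487427 to 38519266) resembles ornithine decarboxylase but has no activity, and it frees the enzyme by binding antizyme. Azin1 had 122, 114, 120.4 and 111 rescaled CPM in castrated samples, against 168 and 149 in intact samples. All 4 castrated values were below both intact values and lay close together. The mean was 117 ± 5.27 in castrated (SD, n = 4) and 159 ± 13.4 in intact samples (SD, n = 2), and the log2 difference of -0.44 had an interval of -0.66 to -0.21. Azin1 missed the threshold over all genes (unadjusted p = 0.00262, limma adjusted p = 0.0796), as in edgeR (adjusted p = 0.0793), and passed it in DESeq2 (adjusted p = 0.00115). With 1 sample left out the log2 difference was between -0.53 and -0.35, and Azin1 was called lower in 1 of 6 fits, without castrated sample 4 (adjusted p = 0.0480). A gene on the opposite strand covers 5.72% of the exon bases of Azin1.

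For Arg2 and Azin1, whose groups did not overlap, some marker lists also separated the groups. The 5 prostate markers and the 5 androgen targets were lower in castrated samples, as given above. Of 4 neutrophil markers in the tables, 4 were called higher, with sums of 194 to 339 in castrated and 27.9 to 65.3 in intact samples. The 5 smooth muscle markers summed to 159 to 299 in castrated and 124 to 138 in intact samples, with 0 called. The 6 macrophage markers, of a cell type that can express arginases, overlapped at 552 to 873 in castrated and 599 to 701 in intact samples, with 0 called. The part of these lists in the levels of Arg2 and Azin1 was not tested.

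Levels of different genes were compared per kilobase of merged exons, in the order of the castrated means. On that scale Sat1 was the highest, at 283 ± 33.5 in castrated (SD, n = 4) and 240 ± 15.1 in intact samples (SD, n = 2), and no sample of Sat1 overlapped any other gene. Odc1 followed at 33.1 ± 2.51 in castrated and 33.6 ± 2.97 in intact samples. Smox (24.0 ± 1.57 in castrated and 22.9 ± 3.58 in intact), Srm (22.5 ± 1.64 and 26.4 ± 6.48, in the same order) and Azin1 (18.7 ± 0.842 and 25.3 ± 2.14) came next. Over the 6 samples the ranges of Smox, Srm and Azin1 overlapped one another, and that of Srm overlapped that of Odc1. Sms (11.7 ± 4.54 in castrated and 5.92 ± 0.214 in intact) and Arg2 overlapped too. The range of Arg2, 7.43 to 24.8 over both groups, also overlapped those of Azin1, Smox and Srm. The order was not the same in the intact means, where Srm, Azin1 and Arg2 were above Smox and Sms was below Arg2. Paox (3.49 ± 0.421 in castrated and 3.77 ± 0.484 in intact) and Oaz1 (1.19 ± 0.290 and 1.19 ± 0.0838) were lowest of the 9, with the limits on Oaz1 given above.

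Ratios within a sample do not depend on the scaling between samples. The log2 ratio of Odc1 over Azin1 per kilobase was 0.60, 0.86, 0.85 and 0.98 in castrated samples and 0.41 and 0.40 in intact samples. All 4 castrated ratios were above both intact ones. With log2 differences of -0.02 for Odc1 and -0.44 for Azin1, this mostly restates the separation of Azin1, which was not called. Sat1 over Odc1 was 3.39, 3.15, 2.75 and 3.08 on the log2 scale in castrated samples, against 2.68 and 2.99 in intact samples, and the groups overlapped. The ratios Odc1 over Oaz1, Azin1 over Oaz1 and Smox over Paox overlapped between the groups as well. Castrated sample 4 had the highest Odc1 over Oaz1 (5.50, against 4.43 to 4.78 in the other castrated and 4.84 and 4.80 in the intact samples). There Odc1 was at 119 rescaled CPM, near the other samples, and Oaz1 was lowest, at 1.96 from 122 reads. The level of Oaz1 is uncertain, as given above. These ratios were not tested.

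**Figure D2:**
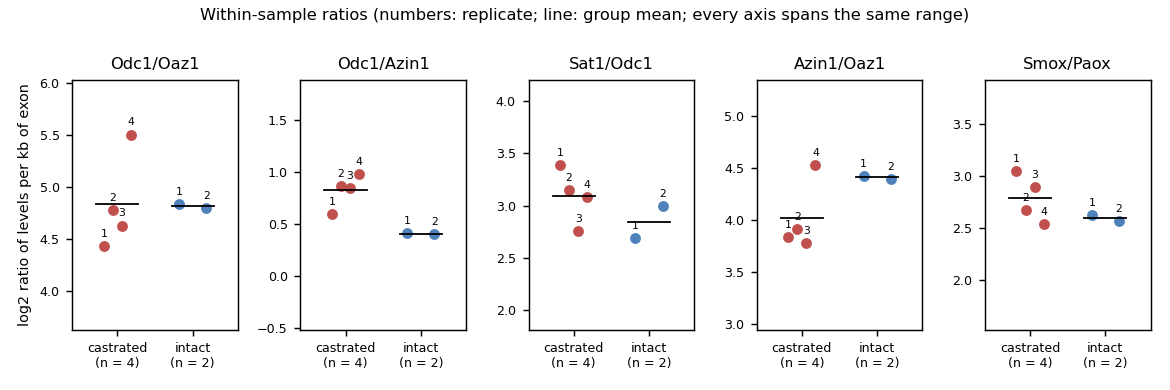
Log2 ratios of 5 pairs of polyamine genes, each on levels per kilobase of exon, in 4 castrated samples (left, red) and 2 intact samples (right, blue), with replicate numbers and group means as lines. The castrated and intact points are apart for Odc1 over Azin1 and overlap for the other 4 ratios.

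A wider list of 36 genes around the pathway was examined, of which 30 were tested. Gatm was called higher and 0 were called lower, beside 0.698% of all tested genes called higher and 1.27% called lower. With 1 call of 30, it cannot be told whether the list differs from these shares. The median log2 difference was -0.05, beside 0.00 for all tested genes. At an unadjusted p under 0.05 there were 5 of 30, 1 higher and 4 lower, against 15.9% of tested genes. edgeR called 0 and DESeq2 called 3 of the 30, against 1.46% and 9.31% of all genes. The groups did not overlap in 8 of 30, against 26.6% of tested genes.

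Of 8 genes of arginine and ornithine supply, 6 were tested, and Gatm was called. Gatm (chromosome 2, 122594467 to 122611303) encodes glycine amidinotransferase, which uses arginine and glycine to start creatine synthesis and releases ornithine. It had 70.5, 69.2, 80.1 and 82.2 rescaled CPM in castrated samples, against 49.9 and 48.3 in intact samples. All 4 castrated values were above both intact ones, a 1.53-fold rise (log2 difference of 0.61, 95% interval 0.35 to 0.87, limma adjusted p = 0.0487). The call was kept in 1 of the 6 fits with 1 sample left out, without castrated sample 4 (adjusted p = 0.0281). In the other 5 the adjusted p ranged from 0.0865 to 0.284, and in edgeR it was 0.0623. The call was also lost with no filter (adjusted p = 0.0660), with values as deposited (adjusted p = 0.0596) and without a trend (adjusted p = 0.0762). With the replicate number as a block it was lost too (adjusted p = 0.0932), in a fit whose difference rests on samples 1 and 2 of each group.

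The arginine transporter gene Slc7a1, named after its values were seen, was at 33.2, 36.8, 40.0 and 46.6 rescaled CPM in castrated samples and at 57.7 and 60.3 in intact samples. The groups did not overlap, but Slc7a1 was not called (log2 difference of -0.60, 95% interval -0.94 to -0.25, limma adjusted p = 0.104). DESeq2 called it lower (adjusted p = 0.0137), as did limma without castrated sample 4 (adjusted p = 0.0223). Ass1, which makes the precursor of arginine and is also named after its values were seen, had 2 reads in castrated and 0 in intact samples. Of its 50-base stretches, 38.6% occur in the pseudogene Gm5424, and that share's part was not tested.

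Among 8 further enzymes and regulators, 6 were tested and 0 were called. The smallest p was that of Oaz3, the antizyme of male germ cells, at 0.778, 0.483, 0.736 and 0.225 rescaled CPM in castrated samples and 1.98 and 3.42 in intact samples. The groups did not overlap, and the log2 difference was -1.60 with a 95% interval from -2.43 to -0.77 (limma adjusted p = 0.0817). At this low level the size depended on the constant added before the logarithm, with a log2 difference of -2.15 for 0.1 and -1.24 for 1. It was -2.29 in both edgeR (adjusted p = 0.0956) and DESeq2, of which DESeq2 called Oaz3 lower (adjusted p = 0.00688), as did limma without castrated sample 4 (adjusted p = 0.0452), and without either intact sample it was below the filter and not tested. Genes on the opposite strand cover 55.8% of the exon bases of Oaz3, whose counts rest on 14 to 42 reads per castrated and 85 and 196 reads per intact sample.

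All 8 genes that supply S-adenosylmethionine or recycle methylthioadenosine, the by-product of both synthases, were tested, and 0 were called. The smallest p was that of Mat2a, which makes S-adenosylmethionine, at 273, 239, 264 and 242 rescaled CPM in castrated samples and 310.2 and 308 in intact samples. The groups did not overlap, with a log2 difference of -0.28 and an interval of -0.51 to -0.05 (limma adjusted p = 0.214). Genes on the opposite strand cover 11.3% of the exon bases of Mat2a.

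Spermidine is also used to make hypusine, a modified lysine of the translation factor eIF5A. All 4 genes of this step were tested, and 0 were called. The smallest p was that of the hydroxylase Dohh, at 46.5, 38.6, 40.2 and 31.0 rescaled CPM in castrated samples and 44.6 and 40.0 in intact samples, with a log2 difference of -0.12 and an interval of -0.52 to 0.27 (limma adjusted p = 0.787). A gene model on the same strand covers 47.5% of the exon bases of Dohh.

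Of 8 transport genes, 6 were tested and 0 were called. The smallest p was that of Slc3a2, a subunit of amino acid exchangers that has also been linked to polyamine export. It was at 142, 126, 118 and 108 rescaled CPM in castrated samples, against 158 and 157 in intact samples. The groups did not overlap, with a log2 difference of -0.35 and an interval of -0.65 to -0.06 (limma adjusted p = 0.222).

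**Figure D3:**
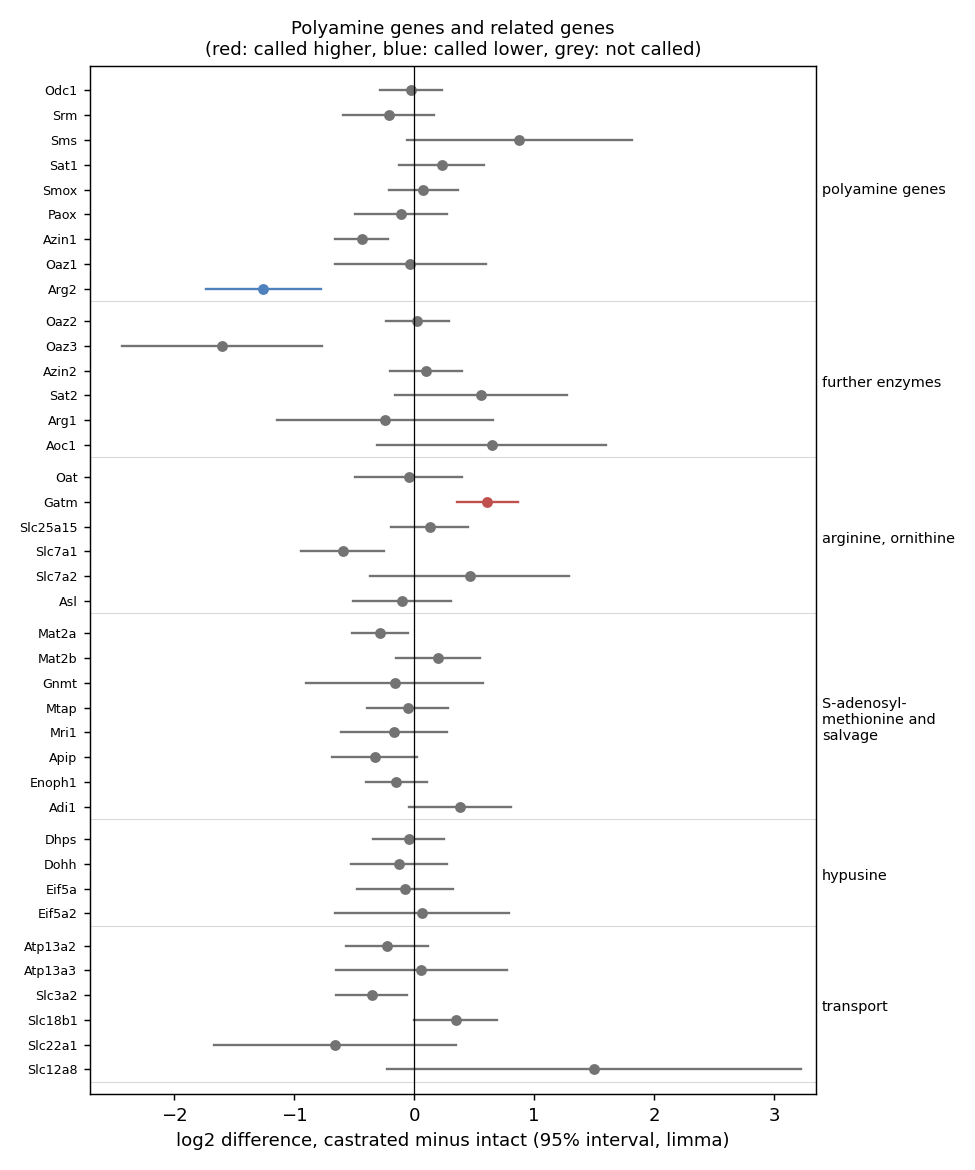
Log2 differences (x axis, castrated minus intact, limma) with 95% intervals for the 9 tested polyamine genes and 30 tested genes of the wider list, grouped by role. Blue marks the called fall of Arg2, red the called rise of Gatm and grey the genes that were not called, whose intervals mostly include 0.

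The genes whose log2 levels over the 6 samples were most like those of Odc1 and of Arg2, the gene that varied most of the 10, were found by the root mean square difference of mean-centred values. Nearest to Odc1 were Cdip1 (0.02), Oxsr1 (0.03), Rrp15 (0.03), Brox (0.03) and Sh3glb1 (0.03). Each was within 0.08 of no difference between the groups on the log2 scale, which the choice of genes nearest to Odc1 largely fixes. Nearest to Arg2 were Phgdh (0.08), Stk39 (0.11), Mt1 (0.14), Lpcat4 (0.14) and Mpi (0.15). Phgdh, the first enzyme of serine synthesis, was at 81.4, 63.8, 66.5 and 46.3 rescaled CPM in castrated samples and at 162 and 147 in intact samples. Like Arg2, it was lowest in castrated sample 4 and its groups did not overlap, which its choice as the nearest gene largely fixes. These likenesses describe the same 6 samples and were not tested.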

How the data were processed

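Each sample has 1 table deposited by the authors, in CPM, which sums to 1000000 over all genes. The submitters' processing notes name TopHat2, HTSeq, edgeR and the build mm10, without versions or roles; strand use, read length and annotation are not given in the sources used here. Dividing a sample's values by its smallest nonzero value gave whole numbers for 100% of them (tolerance 1e-06), and these were used as recovered reads.

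Rescaled CPM are the deposited values over size factors (0.981 to 1.05) from medians of ratios. limma 3.58.1 in R 4.3.3, with a mean-variance trend, was fitted to log2(rescaled CPM + 0.5) for castrated minus intact samples over 13898 genes with CPM of 1 or more in 2 or more samples. Differences are on that scale, which understates changes of weakly expressed genes. P-values are two-sided with Benjamini-Hochberg adjustment and a threshold of 0.05. edgeR 4.0.16 and DESeq2 1.42.0 were run on the recovered reads. Simulated counts with planted differences, and with the same spread setting for every gene, were used to check these steps. That check does not test how stable the calls given here are.

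Positions and exons are from GENCODE M21 (GRCm38, the assembly of mm10). The 50-base stretches were matched on both strands to its transcripts. Genes and lists were chosen with earlier results of these data known. From the wider list the rule names called genes and, in each subgroup, the tested gene with the smallest p; others are marked in the text. It also names the 5 genes nearest in pattern to Odc1 and to whichever of the 10 varied most, with numbered gene models and Rik names left out. Floors cover counting error only. The gene deleted in all 6 samples is not reported here.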

Additional observations from a re-analysis of the deposited data

Results flagged for a closer look

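Of 44 sets of castrated values examined (39 tested genes and 5 ratios), 2 held a sample far from the other 3, where chance gives about 1 in 20. Arg1 was at 773 rescaled CPM in castrated sample 2, against 312 to 377 in the other castrated samples. The gap to its nearest neighbour was 0.861 of the group's range. Slc18b1, which encodes a vesicular polyamine transporter, was at 28.7 in castrated sample 1, against 22.9 to 23.2 in the others, a gap of 0.944 of the range.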

How the results depend on the processing

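The number of the 10 genes called was 1 under both other pseudocounts, the values as deposited, TMM scaling, limma without a trend and edgeR, 0 with no filter, 2 in DESeq2 and from 0 to 3 with 1 sample left out (3 without castrated sample 4 and 0 without any of the other 5). The count over all genes was 274, 170 with no filter and 1293 in DESeq2, and with 1 sample left out 78, 83, 46 and 1052 without castrated sample 1, 2, 3 or 4 and 9 and 1 without intact sample 1 or 2. For the wider list it was 1, 0 with no filter, as deposited, without a trend or in edgeR, 3 in DESeq2, and from 0 to 3 with 1 sample left out. Replicate numbers 1 and 2 occur in both groups, but nothing in the labels says that they pair samples. Deviations of same-numbered samples correlated at 0.0755 and 0.226. With 2 intact samples the differently numbered pairs have the same values with the opposite sign by construction. These correlations therefore cannot show whether the samples were paired. With the replicate number as a block, 417 genes, 2 of the 10 and 0 of the wider list were called. The 2 were Arg2, and Sms higher at a log2 difference of 1.14 (limma adjusted p = 0.0447). Replicate numbers 3 and 4 occur only among castrated samples, so in that fit the difference rests on samples 1 and 2 of each group. Castrated sample 4, at the intact level for Sms, thus does not enter it. Genes that were not called changed sign near 0: as deposited, Odc1 was at 0.025 and Oaz1 at 0.0078, and with the block Oaz1 was at 0.096 and Dohh at 0.0050. With 1 sample left out, log2 differences ranged from -0.115 to 0.064 for Odc1, -0.464 to 0.035 for Srm, -0.086 to 0.232 for Smox, -0.240 to 0.015 for Paox, -0.110 to 0.130 for Oaz1, -0.540 to 0.056 for Arg1 and -0.037 to 0.067 for Oaz2. With 2 intact samples, leaving 1 out assumes that the other varies like the castrated ones.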
